A study of Mus musculus with 20 samples.

Results

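Loss of TGF-beta signalling in juvenile microglia was read from 6 of the 20 libraries of a mouse series, 3 of T2MG and 3 of Control microglia, each from a different animal at postnatal day 15 (P15). The libraries were chosen by the stage and genotype in their titles, and all 15568 genes that passed the filter on low counts were tested. The labels describe T2MG cells as unable to signal through TGF-beta. The series' description speaks of the loss of 1 or both copies of Tgfbr2 and does not say which group carries which genotype, so Control animals may carry the same alleles in part. Both groups have the strain entry C57Bl6 and FVB, which does not tell libraries apart. The sources used here do not give the driver of the deletion, the deleted part of Tgfbr2, the sex of the animals or the gates of the cell sort. In bulk RNA of sorted cells, fewer cells of a type and less RNA per cell cannot be told apart.

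Microglia are the resident macrophages of the brain. TGF-beta is released in a latent form and, once freed by integrins, is bound by the type II receptor Tgfbr2, which activates the type I receptor Tgfbr1. Tgfbr1 phosphorylates Smad2 and Smad3, which enter the nucleus with Smad4 and switch on, among others, the inhibitors that close the loop (Smad7, Skil, Ski and Pmepa1). In the brain this signal is known for keeping the gene programme of resting microglia, with P2ry12, Tmem119 and Sall1 as its best known members.

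The P15 libraries held between 14546425 and 16468744 counts. T2MG 3, the third T2MG replicate, was the shallowest and had counts for 14827 genes, against 15283 and 15873 in T2MG 1 and T2MG 2 and 16023 to 16177 in the Control libraries. Over the 9157 genes that averaged 10 CPM (counts-per-million) or more, the first principal component took 70.4% of the variance and had all T2MG libraries on one side. The second took 14.8%, with T2MG 3 at 35.8, T2MG 1 and T2MG 2 at -26 and -24.9, and the Control libraries between 0 and 10.8. T2MG 3 thus stood apart from its own replicates, and results are given with and without it. Chi-square over counts was 73.64 per gene between T2MG 1 and T2MG 2, 123.66 and 152.47 between each of them and T2MG 3, and 25.3 to 42.83 between Control libraries, so no library was counted as a repeat of another. Csf1r, the receptor that keeps microglia and other macrophages alive, had 4650, 4480 and 2150 CPM in T2MG libraries, against 6930, 8790 and 8780 CPM in Control libraries, so all 6 libraries carried RNA of that lineage.

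Levels are CPM scaled by TMM, in the order of replicates 1, 2 and 3. Each log2 fold change is T2MG over Control, beside its standard error (SE), and adjusted p-values come from edgeR's quasi-likelihood test with Benjamini-Hochberg adjustment over all genes tested. A gene was called at an adjusted p under 0.05. At P15 3738 genes were called, 24.0% of those tested, with 1821 higher (11.7%) and 1917 lower (12.3%) in T2MG. Of these, 921 were at least 2-fold higher and 1187 at least 2-fold lower, and 263 and 297 passed 8-fold. Without T2MG 3, 1361 genes were called higher (8.74%) and 1480 lower (9.51%), and 2539 of the 3738 calls were kept in the same direction. Without Control 3, fewer calls were made: 1140 higher and 1335 lower. A fit of the 6 P15 libraries alone called 1023 higher and 1090 lower. The 2 groups did not overlap for 5802 genes, 37.3% of those tested. The median log2 fold change of all genes was 0.01. For each gene list below, 11.7% higher and 12.3% lower are the shares over all genes tested.

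Tgfbr2 itself (GRCm38 chromosome 9, 116084293 to 116175360, minus strand) was measured first, as a check of the labels. It had 338, 471 and 228 CPM in T2MG libraries, against 501, 550 and 642 CPM in Control libraries, the lowest in T2MG 3, and the groups did not overlap (log2 fold change -0.71, SE 0.23, adjusted p = 0.0305). Without T2MG 3 the difference was -0.48 with an adjusted p of 0.132, and the call was also lost without T2MG 1 (adjusted p = 0.0696), Control 2 (0.058) and Control 3 (0.116). Because the deleted exons are not given, counts over the whole gene cannot tell a shortened transcript from an intact one. Tgfbr1 and Acvr1, 2 other receptor genes, fell by larger amounts. Tgfbr1, the type I receptor (GRCm38 chromosome 4, 47353222 to 47414931, plus strand), had 114, 179 and 99.1 CPM in T2MG libraries, against 1030, 963 and 1140 CPM in Control libraries (log2 fold change -3.0, SE 0.32, adjusted p = 5.75e-06). Acvr1, a type I receptor mostly of bone morphogenetic proteins, had 9.53, 8.88 and 10.7 CPM in T2MG libraries, against 35, 36 and 30.4 CPM in Control libraries (log2 fold change -1.80, SE 0.19, adjusted p = 6.71e-06). In both genes the 3 T2MG libraries lay within 2-fold of each other, with log2 fold changes of -2.84 and -1.88 without T2MG 3. Eng, a co-receptor known from endothelium, fell as well (log2 fold change -1.61, SE 0.27, adjusted p = 0.000338), as did Itgav, the integrin subunit that helps to free latent TGF-beta (log2 fold change -1.79, SE 0.31, adjusted p = 0.000457).

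Of the 21 tested genes of receptors, ligands and activation, 3 rose and 6 fell, with a median log2 fold change of -0.68 (2 and 6, and -0.86, without T2MG 3). The other 2 that fell, Ltbp1 and Itgb8, lay under 4 CPM in every library. The 3 that rose were Acvrl1, a type I receptor (log2 fold change 1.16, SE 0.26, adjusted p = 0.0033), Nrros, which holds latent TGF-beta on microglia (log2 fold change 0.84, SE 0.20, adjusted p = 0.00587), and the ligand Tgfb3. Tgfb3 had 15.3, 12.9 and 112 CPM in T2MG libraries, against 5.92, 4.4 and 3.19 CPM in Control libraries, so that T2MG 3 lay far above its replicates, and the rise was not called without it (1.64, adjusted p = 0.0567). Tgfb1, the main ligand in microglia, had 273, 116 and 88.8 CPM in T2MG libraries, against 187, 186 and 184 CPM in Control libraries and was not called (log2 fold change -0.22, SE 0.28, adjusted p = 0.606).

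Of 21 tested SMADs and feedback genes, 11 fell and 1 rose, with a median of -0.84 (10, 0 and -0.81 without T2MG 3). Smad7, the inhibitor that blocks the type I receptor, had 13, 11.7 and 2.53 CPM in T2MG libraries, against 195, 220 and 195 CPM in Control libraries. All T2MG libraries lay far below the Control libraries, T2MG 3 the furthest (log2 fold change -4.48, SE 0.43, adjusted p = 2.39e-06). Skil (GRCm38 chromosome 3, 31095058 to 31122577, plus strand), a SnoN repressor that SMADs induce, had 29.8, 30.7 and 25.1 CPM in T2MG libraries, against 161, 164 and 188 CPM in Control libraries, nearly the same in the 3 T2MG libraries (log2 fold change -2.58, SE 0.31, adjusted p = 1.7e-05). Pmepa1, a further induced inhibitor, had 49.7, 68.8 and 20.7 CPM in T2MG libraries, against 258, 393 and 296 CPM in Control libraries (log2 fold change -2.76, SE 0.53, adjusted p = 0.00115). Tgif2, a co-repressor, had 3.33, 5.68 and 2.78 CPM in T2MG libraries, against 20.9, 16.1 and 19.9 CPM in Control libraries (log2 fold change -2.26, SE 0.27, adjusted p = 1.32e-05). Of the signal carriers themselves, Smad3 (GRCm38 chromosome 9, 63646767 to 63757994, minus strand) had 22.7, 25.3 and 12.7 CPM in T2MG libraries, against 73.7, 63.6 and 79.4 CPM in Control libraries and fell (log2 fold change -1.83, SE 0.23, adjusted p = 2.83e-05). Smad2 had 71.2, 75.3 and 84.3 CPM in T2MG libraries, against 82.6, 105 and 82.5 CPM in Control libraries. Smad4 had 88.5, 116 and 171 CPM in T2MG libraries, against 108, 111 and 104 CPM in Control libraries. Neither was called (adjusted p = 0.155 and 0.397). Smad1, a carrier of bone morphogenetic protein signals, fell by less (log2 fold change -0.84, SE 0.13, adjusted p = 0.000132), while Id1 and Id3, targets of those signals, were not called (log2 fold changes 0.38 and -0.40, adjusted p = 0.583 and 0.648). The member that rose, Tgfbi, a secreted matrix protein that TGF-beta is known to induce in other cells, had 388, 339 and 910 CPM in T2MG libraries, against 175, 140 and 162 CPM in Control libraries. Its rise was not called without T2MG 3 (1.19, adjusted p = 0.0704).

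**Figure D1:**
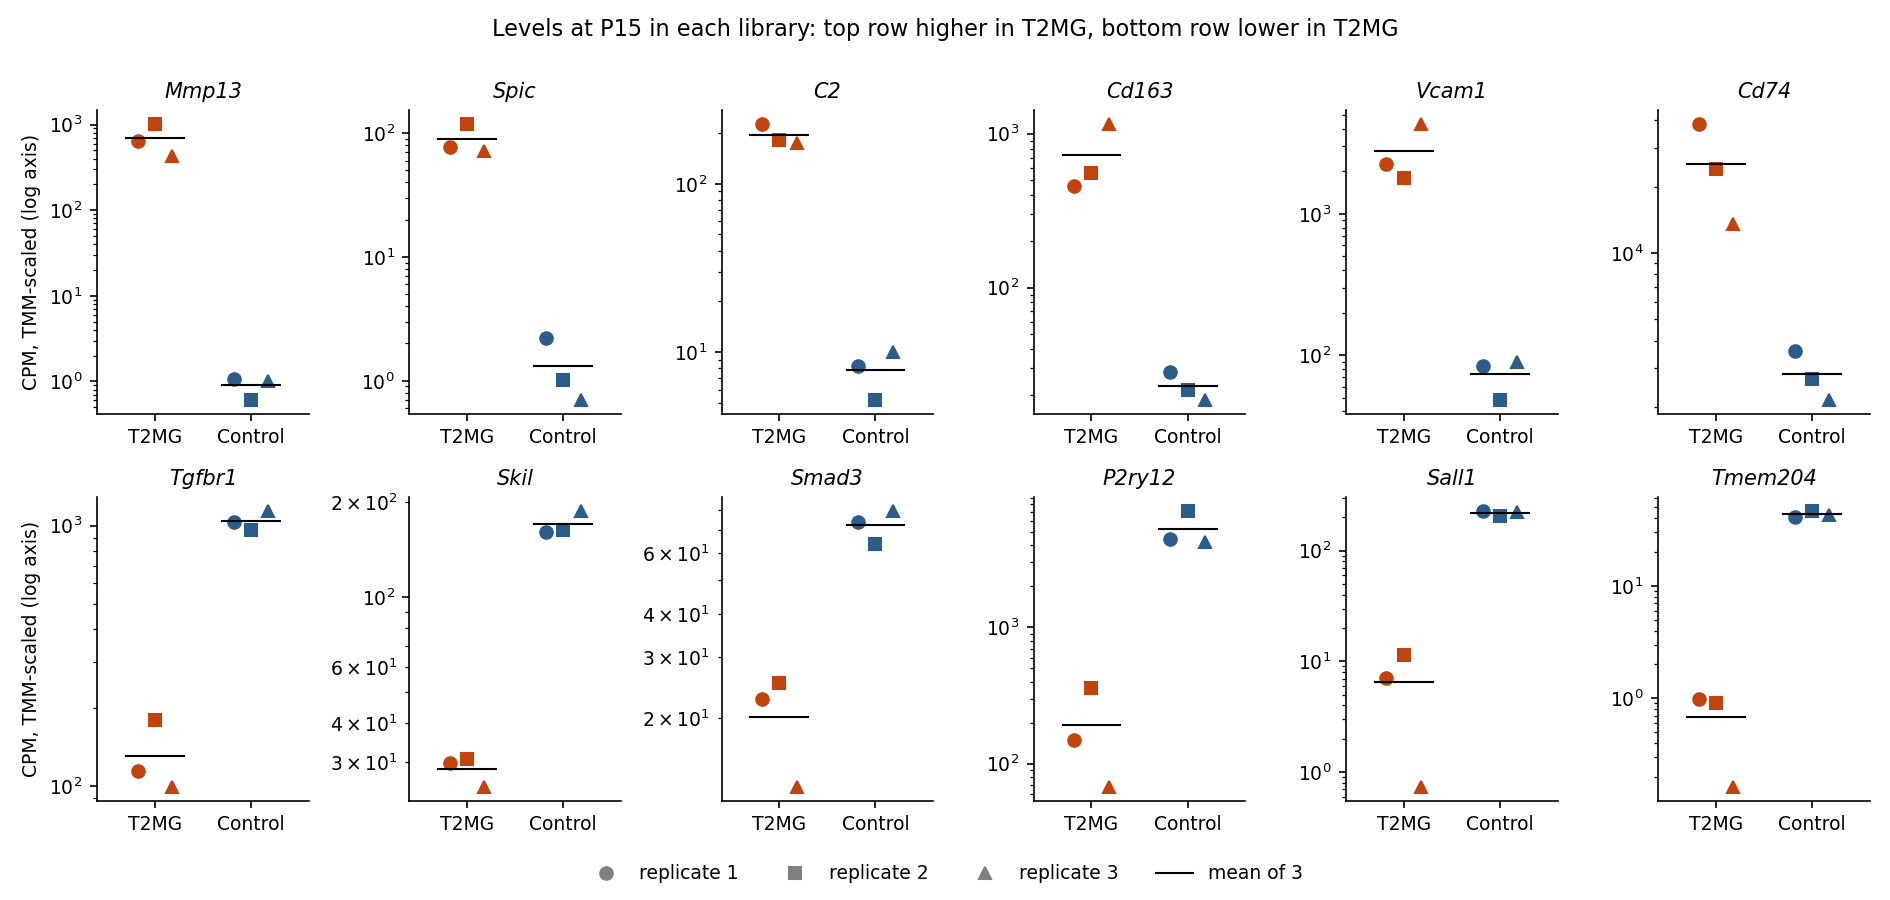
Level in CPM (log axes, TMM-scaled) of 12 genes in each P15 library, T2MG left and Control right of each panel, with a bar at the mean of 3. The top row holds genes higher in T2MG (Mmp13, Spic, C2, Cd163, Vcam1, Cd74) and the bottom row genes lower in T2MG (Tgfbr1, Skil, Smad3, P2ry12, Sall1, Tmem204). In each panel the 3 T2MG libraries lie on the same side of the 3 Control libraries.

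The genes of resting microglia were lower almost throughout. Of 37 tested homeostatic surface and secreted genes, 34 fell and 0 rose, with a median of -3.03 beside 0.01 over all genes. Without T2MG 3, 36 fell and the median was -2.63. In the single T2MG libraries the median difference from the Control mean was -2.89, -2.48 and -3.26 on the log2(CPM + 1) scale, so each animal showed it. P2ry12 (GRCm38 chromosome 3, 59216272 to 59262871, minus strand), the ADP receptor that guides microglial processes, had 148, 359 and 67.4 CPM in T2MG libraries, against 4500, 7190 and 4250 CPM in Control libraries (log2 fold change -4.79, SE 0.55, adjusted p = 1.21e-05). Gpr34, a receptor of lysophosphatidylserine, had 156, 354 and 40.6 CPM in T2MG libraries, against 1740, 2770 and 1620 CPM in Control libraries (log2 fold change -3.48, SE 0.58, adjusted p = 0.000342). T2MG 3 was the lowest of its group for both. Selplg, an adhesion ligand, was the most even, with 855, 851 and 793 CPM in T2MG libraries, against 3990, 5920 and 4390 CPM in Control libraries (log2 fold change -2.52, SE 0.21, adjusted p = 7.91e-07). Csf1r fell too (log2 fold change -1.12, SE 0.30, adjusted p = 0.0108), by less than most of the list. Cx3cr1 (GRCm38 chromosome 9, 119901616 to 120069879, minus strand), the fractalkine receptor, had 343, 354 and 20.5 CPM in T2MG libraries, against 2410, 3640 and 3130 CPM in Control libraries. Its fall was called with a log2 fold change of -3.68, and -3.13 without T2MG 3, whose level was over 10-fold below those of its replicates.

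Of 24 microglial transcription factors, 10 fell and 4 rose (8 and 4 without T2MG 3; median -0.47). Sall1 and Sall3, zinc finger repressors, had the largest falls. Sall3 had 2.42, 0.457 and 0.654 CPM in T2MG libraries, against 81, 110 and 81.8 CPM in Control libraries (log2 fold change -6.28, SE 0.52, adjusted p = 7.91e-07). Sall1 had 7.11, 11.5 and 0.736 CPM in T2MG libraries, against 229, 206 and 225 CPM in Control libraries, with T2MG 3 lowest (-4.56 without it). Mef2a, a broad microglial factor, had 85.6, 122 and 111 CPM in T2MG libraries, against 354, 377 and 403 CPM in Control libraries (log2 fold change -1.83, SE 0.21, adjusted p = 1.27e-05). Cebpa, a myeloid factor, had 154, 71.7 and 88.8 CPM in T2MG libraries, against 276, 277 and 277 CPM in Control libraries (log2 fold change -1.40, SE 0.21, adjusted p = 0.000123). The 4 that rose were Spic, Nr1h3, Tfec and Maf. Spic (GRCm38 chromosome 10, 88674772 to 88685015, minus strand), the factor that defines iron-recycling macrophages of the spleen, had 77.1, 119 and 71.6 CPM in T2MG libraries, against 2.2, 1.02 and 0.701 CPM in Control libraries (log2 fold change 6.08, SE 0.63, adjusted p = 4.89e-06). Nr1h3, the oxysterol receptor LXR alpha, had 32.5, 26.1 and 32 CPM in T2MG libraries, against 4.98, 2.37 and 4.4 CPM in Control libraries (log2 fold change 2.94, SE 0.40, adjusted p = 4.83e-05). For both, the T2MG libraries lay close together, and the fold change was much the same without T2MG 3 (6.21 and 2.90 without it).

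Among 19 purinergic genes, which sense and break down extracellular nucleotides, 5 fell and 4 rose, with a median of 0.10. Adora3, an adenosine receptor, had 1.44, 1.7 and 2.29 CPM in T2MG libraries, against 23.7, 34.3 and 28.1 CPM in Control libraries (log2 fold change -3.99, SE 0.34, adjusted p = 8.8e-07). P2ry13, a second ADP receptor, had 218, 356 and 162 CPM in T2MG libraries, against 1710, 2630 and 1700 CPM in Control libraries (log2 fold change -3.03, SE 0.38, adjusted p = 2.58e-05). P2rx4, the ATP-gated channel of activated microglia, moved the other way with 472, 438 and 450 CPM in T2MG libraries, against 100, 142 and 123 CPM in Control libraries (log2 fold change 1.90, SE 0.21, adjusted p = 8.98e-06), as did Ada, adenosine deaminase (log2 fold change 2.02, SE 0.30, adjusted p = 0.00011). Without T2MG 3, Control 2 or Control 3, 2 rose in each case, and 5 fell without T2MG 3. Of 23 ion channel genes, 6 fell and 5 rose (6 and 4 without T2MG 3; 3 rose without Control 1 or Control 2), with a median of -0.32. Kcnd1, a voltage-gated potassium channel, had 6.28, 4.18 and 1.63 CPM in T2MG libraries, against 55.4, 70.5 and 67.7 CPM in Control libraries (log2 fold change -3.99, SE 0.38, adjusted p = 2.21e-06), and Kcnk12 fell to 13.5, 6.6 and 13.7 CPM in T2MG libraries, against 50.5, 70.4 and 49.1 CPM in Control libraries (log2 fold change -2.33, SE 0.36, adjusted p = 0.000192). Kcnk13, the channel that sets the resting potential of microglia, fell by less (log2 fold change -0.79, SE 0.23, adjusted p = 0.0171), and was not called without T2MG 3 (adjusted p = 0.0602), T2MG 1 (0.068) or Control 2 (0.0703).

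The 20 called genes with the lowest fold changes lay between -6.73 and -4.50, and the 20 with the highest between 4.91 and 9.58, among called genes of at least 10 CPM whose groups did not overlap. All 20 in each direction were still called without each of the 6 libraries in turn. They were picked by call, fold and lack of overlap over the same libraries, so this is no independent check. Among the lowest, Tmem204 (GRCm38 chromosome 17, 25057702 to 25083591, minus strand), a membrane protein, had 0.983, 0.914 and 0.163 CPM in T2MG libraries, against 41.1, 46.4 and 42.8 CPM in Control libraries (log2 fold change -5.93, SE 0.35, adjusted p = 2.35e-08). Chst8, a carbohydrate sulfotransferase, had 0.0757, 0.457 and 0 CPM in T2MG libraries, against 18.6, 30.1 and 14.7 CPM in Control libraries (log2 fold change -6.73, SE 0.89, adjusted p = 4.19e-05). Slc2a5, the fructose transporter, had 15.2, 56.3 and 3.11 CPM in T2MG libraries, against 560, 894 and 509 CPM in Control libraries (log2 fold change -4.71, SE 0.67, adjusted p = 8.72e-05). Upk1b, a tetraspanin, had 1.36, 3.66 and 0 CPM in T2MG libraries, against 77.5, 71.1 and 46.8 CPM in Control libraries (log2 fold change -5.23, SE 0.75, adjusted p = 9.11e-05). Adgrg1, an adhesion receptor that binds matrix, had 56.5, 58.4 and 15.9 CPM in T2MG libraries, against 870, 1210 and 1020 CPM in Control libraries (log2 fold change -4.56, SE 0.44, adjusted p = 2.39e-06). In each of these T2MG 3 had the lowest or joint lowest level, and in Mlph, a linker of vesicles to myosin, the highest of its group (0.53, 0.98 and 2.13 CPM in T2MG libraries, against 38.2, 53.8 and 30.5 CPM in Control libraries).

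Mmp13, a secreted collagenase (GRCm38 chromosome 9, 7272514 to 7283331, plus strand), had the highest fold change of these, with 651, 1020 and 425 CPM in T2MG libraries, against 1.07, 0.609 and 1.02 CPM in Control libraries (log2 fold change 9.58, SE 0.91, adjusted p = 2.21e-06; 9.84 without T2MG 3). H2-Ea-ps, a pseudogene of an MHC class II alpha chain, had 6680, 2480 and 815 CPM in T2MG libraries, against 0.567, 7.11 and 5.61 CPM in Control libraries (log2 fold change 9.55, SE 1.72, adjusted p = 0.000883), spread widely among the T2MG libraries. C6, a component of the complement pore, had 21.3, 18.8 and 37.9 CPM in T2MG libraries, against 0.189, 0.542 and 0 CPM in Control libraries (log2 fold change 6.71, SE 0.85, adjusted p = 2.85e-05). Vcam1 (GRCm38 chromosome 3, 116109949 to 116129688, minus strand), an adhesion molecule of inflamed endothelium and splenic macrophages, had 2240, 1790 and 4340 CPM in T2MG libraries, against 84.1, 48.3 and 90 CPM in Control libraries (log2 fold change 5.23, SE 0.72, adjusted p = 5.9e-05). Tnfsf18, the ligand GITRL, had 9.99, 31.3 and 31.3 CPM in T2MG libraries, against 0.63, 0.88 and 0.319 CPM in Control libraries (log2 fold change 5.30, SE 0.50, adjusted p = 2.2e-06). Slc15a2, a peptide transporter, had 135, 204 and 172 CPM in T2MG libraries, against 5.67, 4.54 and 3.25 CPM in Control libraries (log2 fold change 5.24, SE 0.84, adjusted p = 0.000245). Slc27a6, a fatty acid transporter, had 19.5, 31.9 and 19.9 CPM in T2MG libraries, against 0.504, 0.338 and 0.382 CPM in Control libraries (log2 fold change 5.83, SE 0.90, adjusted p = 0.000167). In these genes all 3 T2MG libraries were high. In Dnase1l3, a secreted nuclease of macrophages, the T2MG libraries ran over a wide range, with 172, 41.2 and 4.17 CPM in T2MG libraries, against 1.07, 0.135 and 0.446 CPM in Control libraries (log2 fold change 7.0, SE 1.68, adjusted p = 0.00558). In Eno1b, a near copy of the enolase Eno1, T2MG 1 was low, with 5.67, 107 and 150 CPM in T2MG libraries, against 1.07, 2.37 and 3.19 CPM in Control libraries (log2 fold change 5.31, SE 1.27, adjusted p = 0.00542). Reads of Eno1b and H2-Ea-ps may be shared with their near copies, as the sources used here do not say how such reads were counted. The strain entry, C57Bl6 and FVB, does not tell libraries apart, so the part of strain background in the level of H2-Ea-ps was not tested. Il1r2 and Gdf15, also among the 20, were much higher in T2MG 3 than in its replicates.

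Promoters of 4 genes are shown to let the sequence be read beside the values: Siglech and Trem2, which fell, and Mmp13 and Bst2, which rose. Each run is the 300 bases from 250 before to 50 after a start, from RefSeq on GRCm38.p6, in the direction of the gene. Capitals mark matches, on either strand, to the SMAD element CAGACA, the AP-1 element TGANTCA or the interferon-stimulated element.
Siglech (chr7:55767934-55768233, plus strand): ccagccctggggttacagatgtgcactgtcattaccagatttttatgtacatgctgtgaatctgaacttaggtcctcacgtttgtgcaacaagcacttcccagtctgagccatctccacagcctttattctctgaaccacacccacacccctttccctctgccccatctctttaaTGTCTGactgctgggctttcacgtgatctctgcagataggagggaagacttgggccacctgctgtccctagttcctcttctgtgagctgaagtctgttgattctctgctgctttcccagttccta
Trem2 (chr17:48346151-48346450, plus strand): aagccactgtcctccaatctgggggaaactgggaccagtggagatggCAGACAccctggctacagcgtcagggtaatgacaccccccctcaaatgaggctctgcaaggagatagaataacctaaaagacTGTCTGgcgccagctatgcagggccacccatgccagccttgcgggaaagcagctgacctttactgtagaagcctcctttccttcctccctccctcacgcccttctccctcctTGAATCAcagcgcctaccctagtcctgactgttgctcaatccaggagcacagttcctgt
Mmp13 (chr9:7272264-7272563, plus strand): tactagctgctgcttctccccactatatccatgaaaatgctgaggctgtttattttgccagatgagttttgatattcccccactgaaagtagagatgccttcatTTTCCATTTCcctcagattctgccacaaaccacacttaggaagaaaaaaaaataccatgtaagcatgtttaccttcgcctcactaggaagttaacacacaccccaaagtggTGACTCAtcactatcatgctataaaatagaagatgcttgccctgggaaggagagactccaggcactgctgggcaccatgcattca
Bst2 (chr8:71537423-71537722, minus strand): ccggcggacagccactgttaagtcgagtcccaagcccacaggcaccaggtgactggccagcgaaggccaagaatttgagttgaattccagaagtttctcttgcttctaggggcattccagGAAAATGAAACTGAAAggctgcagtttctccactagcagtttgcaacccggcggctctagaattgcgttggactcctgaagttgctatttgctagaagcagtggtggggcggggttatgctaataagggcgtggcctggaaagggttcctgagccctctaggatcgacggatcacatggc

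Siglech and Trem2 hold the SMAD element, Trem2 and Mmp13 the AP-1 element, and Mmp13 and Bst2 the interferon element, in Bst2 as 2 matches that overlap. Such short elements are common, and the 4 promoters do not stand for the rest. Those of P2ry12, Sall1 and Cx3cr1, which fell, and of Spic, Cd163 and Apoe, which rose, held none of the 7 motifs searched. The SMAD element also stood in promoters of Adgrg1 and Slc2a5, which fell, and of Stab2, which rose. Over the promoters of called genes, CAGACA stood in 15.1% of those that rose and 17.6% of those that fell, against 16.6% of all 14903 promoters of tested genes. The palindrome GTCTAGAC stood in 0.0568%, 0.206% and 0.215% in the same order, PU.1's GAGGAAGT in 3.24%, 3.85% and 3.09%, and the AP-1 element in 5.91%, 4.98% and 5.37%. The shares were 0.227%, 0.617% and 0.624% for TGATGCAA (ATF4 with C/EBP), 4.49%, 3.65% and 3.72% for GTCACGTG (TFE factors), and 3.75%, 2.77% and 3.12% for the interferon element. Shares within single lists could lie further apart. Among the lists searched, CAGACA stood in 16.7% (border-associated macrophages) to 29.0% (homeostatic) of promoters. The interferon element stood in 53.3% of the 30 promoters of the interferon list. These lists hold few promoters and were chosen with earlier results known, and no difference in shares was tested. A match is a description of letters, not a binding site.

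Genes that mark macrophages at the borders of the brain (meninges, perivascular space and choroid plexus) were higher. Of 20 tested, 13 rose and 0 fell, with a median of 3.11 (14, 0 and 3.29 without T2MG 3). Their summed level was 6690, 10300 and 8010 CPM in T2MG libraries, against 1220, 1140 and 1050 CPM in Control libraries. Mrc1, the mannose receptor, had 458, 1150 and 1420 CPM in T2MG libraries, against 71.3, 61.9 and 87.2 CPM in Control libraries (log2 fold change 3.78, SE 0.45, adjusted p = 1.37e-05). Cd163 (GRCm38 chromosome 6, 124304656 to 124330527, plus strand), the haptoglobin-haemoglobin receptor, had 458, 557 and 1160 CPM in T2MG libraries, against 28.2, 21.5 and 18.6 CPM in Control libraries (log2 fold change 4.99, SE 0.88, adjusted p = 0.000539). In both T2MG 3 was the highest. In Pf4, a platelet-type chemokine, Ms4a7, a membrane protein, and Siglec1, a sialic acid receptor, it was by far the lowest of its group. Pf4 had 436, 743 and 83 CPM in T2MG libraries, against 19.9, 33.2 and 19.3 CPM in Control libraries (log2 fold change 4.12, SE 0.83, adjusted p = 0.00158). Ms4a7 had 695, 809 and 273 CPM in T2MG libraries, against 20.7, 28.8 and 20.8 CPM in Control libraries (log2 fold change 4.66, SE 0.84, adjusted p = 0.00065). Siglec1 had 134, 121 and 26.9 CPM in T2MG libraries, against 5.98, 0.542 and 3.31 CPM in Control libraries (log2 fold change 4.83, SE 0.66, adjusted p = 5.87e-05). Even in T2MG 3 all 3 lay above every Control library. Dab2, an endocytic adaptor, had 945, 1950 and 487 CPM in T2MG libraries, against 120, 163 and 138 CPM in Control libraries (log2 fold change 3.00, SE 0.44, adjusted p = 0.000109). Lyve1 and Folr2, further defining markers, were not called (adjusted p = 0.585 and 0.5). Lyve1 had 20.2, 7.05 and 27.9 CPM in T2MG libraries, against 10.5, 18.8 and 7.2 CPM in Control libraries. Folr2 had 11.1, 19 and 3.6 CPM in T2MG libraries, against 6.3, 9.14 and 4.46 CPM in Control libraries. The part that sorted border macrophages had in these values was not tested.

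More lectins and immune receptors rose than fell. Of 25 C-type lectins, 12 rose and 1 fell (10 and 1 without T2MG 3; median 1.5). Clec4n, dectin-2, a receptor of fungal mannans, had 554, 775 and 507 CPM in T2MG libraries, against 10.3, 11.2 and 5.23 CPM in Control libraries (log2 fold change 6.10, SE 0.78, adjusted p = 2.92e-05). Mgl2, a galactose lectin, had 738, 1090 and 120 CPM in T2MG libraries, against 55.2, 62.6 and 21.3 CPM in Control libraries (log2 fold change 3.81, SE 0.74, adjusted p = 0.00117). Clec4a1, an inhibitory lectin, was even, with 139, 153 and 127 CPM in T2MG libraries, against 21.7, 23.4 and 17.3 CPM in Control libraries (log2 fold change 2.75, SE 0.46, adjusted p = 0.000328). Clec4e and Clec4d, receptors of mycobacterial lipids, were called over all 3 T2MG libraries and not without T2MG 3. Clec4e had 34.9, 14.8 and 154 CPM in T2MG libraries, against 15.3, 12.6 and 14.2 CPM in Control libraries (log2 fold change 2.27, SE 0.79, adjusted p = 0.0436; 0.82 without T2MG 3, adjusted p = 0.471). Clec4d had 8.78, 3.07 and 31.8 CPM in T2MG libraries, against 2.08, 2.3 and 2.42 CPM in Control libraries (log2 fold change 2.67, SE 0.77, adjusted p = 0.0181; 1.38 without T2MG 3, adjusted p = 0.204). Both calls were also lost without any 1 of the Control libraries, with adjusted p from 0.0556 (Clec4d) to 0.116 (Clec4e). Of 30 Siglec, TREM and Fc receptor genes, 15 rose and 4 fell (13 and 4 without T2MG 3; median 1.01). Trem2, the lipid-sensing receptor (GRCm38 chromosome 17, 48346401 to 48354147, plus strand), fell, with 150, 159 and 76.7 CPM in T2MG libraries, against 896, 1290 and 1190 CPM in Control libraries (log2 fold change -3.13, SE 0.49, adjusted p = 0.000206). Siglech (GRCm38 chromosome 7, 55768178 to 55778925, plus strand), a sialic acid receptor of microglia, fell too, with 36.9, 75.4 and 8.99 CPM in T2MG libraries, against 717, 1050 and 835 CPM in Control libraries (log2 fold change -4.42, SE 0.63, adjusted p = 8.65e-05). Fcgr4, an activating Fc receptor, rose, with 242, 111 and 240 CPM in T2MG libraries, against 20, 28.3 and 29 CPM in Control libraries (log2 fold change 2.94, SE 0.42, adjusted p = 9.41e-05), and Fcgr2b, the inhibitory Fc receptor, rose too (log2 fold change 1.52, SE 0.28, adjusted p = 0.000827).

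Of 28 scavenger and engulfment receptors, 10 rose and 4 fell (10 and 5 without T2MG 3), with a median of 0.50. Axl, a receptor for phosphatidylserine bound by Gas6, had 2130, 2250 and 1070 CPM in T2MG libraries, against 166, 174 and 180 CPM in Control libraries (log2 fold change 3.39, SE 0.53, adjusted p = 0.000191). Msr1, scavenger receptor A, had 289, 387 and 589 CPM in T2MG libraries, against 35.7, 42.4 and 36.3 CPM in Control libraries (log2 fold change 3.46, SE 0.48, adjusted p = 5.86e-05). Stab2, a hyaluronan receptor of sinusoids, had 19.1, 28.1 and 22 CPM in T2MG libraries, against 0.567, 0.745 and 0.127 CPM in Control libraries (log2 fold change 5.57, SE 0.76, adjusted p = 5.58e-05). Scarb1, a lipoprotein receptor, had 237, 270 and 192 CPM in T2MG libraries, against 91.6, 91.2 and 97 CPM in Control libraries (log2 fold change 1.32, SE 0.18, adjusted p = 5.25e-05). In all 4 genes every T2MG library lay above every Control library. Havcr2, the checkpoint receptor TIM-3, moved against the list with 18.2, 40.7 and 10.1 CPM in T2MG libraries, against 196, 291 and 257 CPM in Control libraries (log2 fold change -3.43, SE 0.71, adjusted p = 0.00202). Of 19 genes of iron and haem handling, 11 rose and 1 fell (12 and 1 without T2MG 3), with a median of 1.03. Spic and Cd163 are part of this list. Blvra, biliverdin reductase, had 90.8, 110 and 106 CPM in T2MG libraries, against 44.7, 53.9 and 42.3 CPM in Control libraries (log2 fold change 1.13, SE 0.18, adjusted p = 0.000188). Slc40a1, the iron exporter ferroportin, had 922, 2480 and 637 CPM in T2MG libraries, against 277, 391 and 301 CPM in Control libraries (log2 fold change 2.06, SE 0.41, adjusted p = 0.00161), highest in T2MG 2. Ftl1 and Fth1, the ferritin chains, rose too (log2 fold changes 1.23 and 0.99). The list's median difference from the Control mean was 0.94, 0.94 and 0.97 in the T2MG libraries, level between all 3.

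More genes of lipid transport rose than fell. Of 29 genes of lipid transport and LXR targets, 13 rose and 2 fell with T2MG 3 and without it, with a median of 0.87. Pltp (GRCm38 chromosome 2, 164839518 to 164857711, minus strand), the phospholipid transfer protein, had 1780, 1660 and 1210 CPM in T2MG libraries, against 205, 204 and 190 CPM in Control libraries (log2 fold change 2.95, SE 0.24, adjusted p = 7.91e-07). Abcg1, a cholesterol exporter, had 200, 173 and 172 CPM in T2MG libraries, against 45.9, 43.5 and 53 CPM in Control libraries (log2 fold change 1.94, SE 0.22, adjusted p = 1.01e-05). Srebf1, the factor of fatty acid synthesis, had 176, 225 and 231 CPM in T2MG libraries, against 94, 110 and 105 CPM in Control libraries (log2 fold change 1.03, SE 0.12, adjusted p = 1.12e-05). Apoe, the lipid carrier, had 40100, 31300 and 38500 CPM in T2MG libraries, against 3110, 3400 and 3110 CPM in Control libraries (3.48 without T2MG 3). Pparg, a lipid-sensing nuclear receptor, had 50.4, 71.5 and 61.5 CPM in T2MG libraries, against 5.48, 8.66 and 4.4 CPM in Control libraries (log2 fold change 3.31, SE 0.52, adjusted p = 0.000199). In all these genes the T2MG libraries lay close together. Fabp3, a fatty acid carrier, fell (log2 fold change -2.36, SE 0.52, adjusted p = 0.00336). Of 25 sterol synthesis genes, 3 rose (12%, beside 11.7% of all genes tested) and 1 fell, with 2 and 1 without T2MG 3 and a median of 0.08: Mvk and Dhcr7 rose (1.08 and 0.83), and Hmgcs1 fell (-0.93).

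Of 39 lysosomal genes, 16 rose and 7 fell (12 and 6 without T2MG 3; 4 fell without Control 2 or Control 3), with a median of 0.50. The cathepsins divided. Ctsb had 12700, 13700 and 14800 CPM in T2MG libraries, against 3890, 5850 and 4860 CPM in Control libraries (log2 fold change 1.5, SE 0.23, adjusted p = 0.000166) and Ctsc rose too (log2 fold change 1.37, SE 0.28, adjusted p = 0.00166). Ctsd had 3420, 4740 and 3380 CPM in T2MG libraries, against 10900, 16400 and 12300 CPM in Control libraries and fell (log2 fold change -1.78, SE 0.30, adjusted p = 0.000336), as did Ctss and Ctsl (log2 fold changes -1.23 and -1.48). Atp6v0d2, a subunit of the proton pump, had 2.5, 9.66 and 7.19 CPM in T2MG libraries, against 0.252, 0.135 and 0 CPM in Control libraries (log2 fold change 5.54, SE 0.73, adjusted p = 4.1e-05). Cd68, a lysosomal membrane protein of phagocytes, had 2370, 2480 and 1690 CPM in T2MG libraries, against 700, 985 and 918 CPM in Control libraries (log2 fold change 1.33, SE 0.21, adjusted p = 0.000197). The disease-associated list, genes known to rise in microglia around plaques and in degeneration, also divided. Of its 32 genes 15 rose and 5 fell (14 and 5 without T2MG 3), with a median of 1.05. Igf1, a growth factor, had 61.7, 147 and 17.7 CPM in T2MG libraries, against 7.37, 6.7 and 5.48 CPM in Control libraries (log2 fold change 3.53, SE 0.50, adjusted p = 8.39e-05), lowest in T2MG 3. Lilrb4a, an inhibitory receptor, was even at 414, 452 and 446 CPM in T2MG libraries, against 61, 64.6 and 53.1 CPM in Control libraries. The 5 that fell were Trem2, Cd9, Ctsd, Ctsl and Csf1, the ligand of Csf1r (log2 fold change -1.22, SE 0.35, adjusted p = 0.0173). Lpl, lipoprotein lipase, had 214, 477 and 17.3 CPM in T2MG libraries, against 54.2, 80.8 and 88.3 CPM in Control libraries and was not called (adjusted p = 0.0733).

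**Figure D2:**
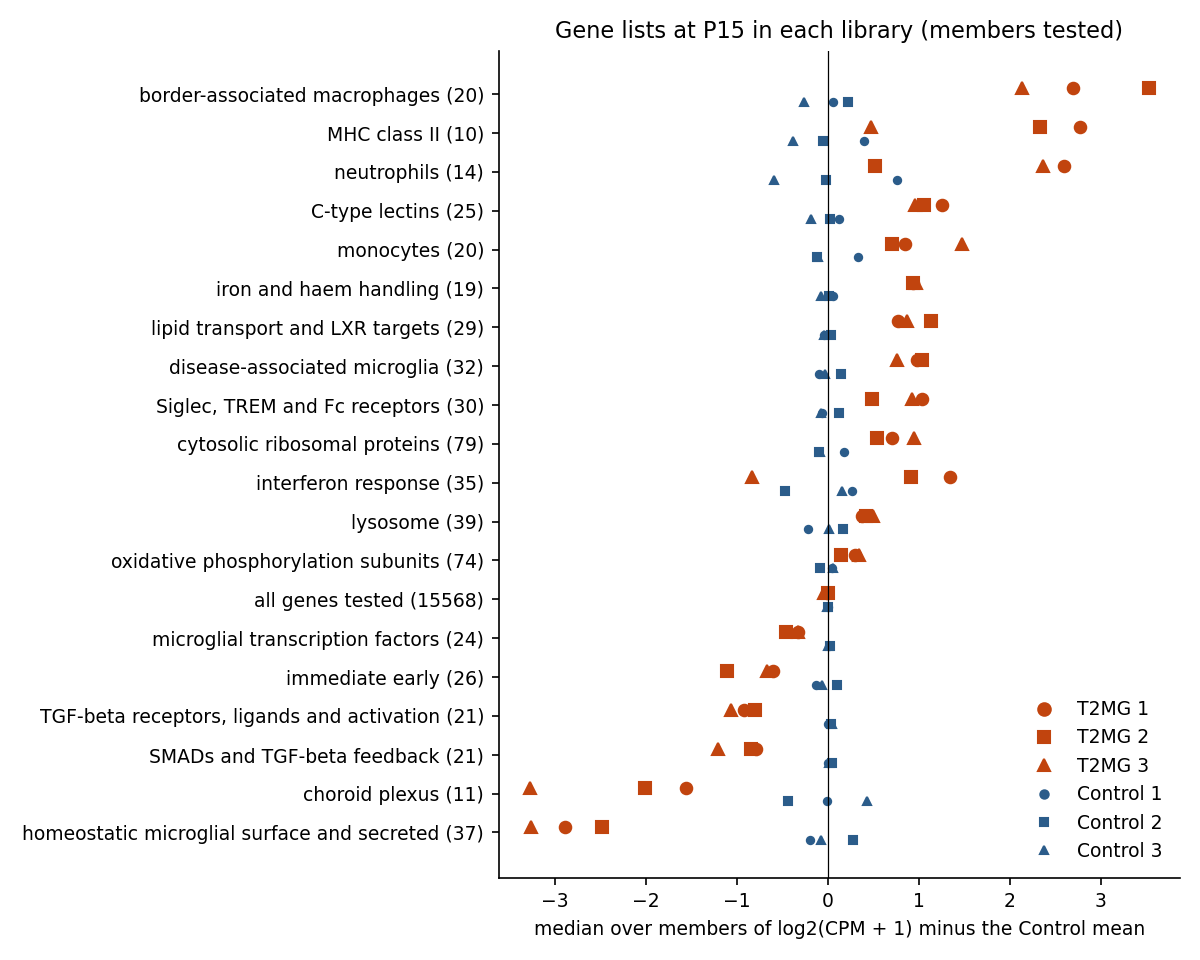
Median over the members of 20 gene groups, all genes tested among them, of log2(CPM + 1) minus the mean of the Control libraries, for each T2MG library (large symbols) and below it each Control library (small symbols). Triangles are the third replicates. The homeostatic list lies at -2.89, -2.48 and -3.26 and the border macrophage list at 2.7, 3.53 and 2.14 in T2MG 1, 2 and 3. In the interferon and MHC class II lists T2MG 3 lies away from the other T2MG libraries.

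In antigen presentation and interferon genes T2MG 3 lay apart from the other T2MG libraries. Of 10 MHC class II genes, 7 rose and 2 fell, with a median of 2.1 (7, 2 and 2.59 without T2MG 3). Only 3 rose without T2MG 1 or T2MG 2, 4 without Control 2 and 2 without Control 3. Cd74, the invariant chain, had 38500, 24100 and 13500 CPM in T2MG libraries, against 3600, 2690 and 2160 CPM in Control libraries (log2 fold change 3.17, SE 0.76, adjusted p = 0.00549). H2-Aa, an alpha chain, had 4400, 4470 and 867 CPM in T2MG libraries, against 813, 371 and 267 CPM in Control libraries (log2 fold change 2.75, SE 0.88, adjusted p = 0.0303), called with and without T2MG 3 but not without T2MG 1 (adjusted p = 0.0703), T2MG 2 (0.0643), Control 2 (0.0962) or Control 3 (0.116). T2MG 3 lay between its replicates and the Control libraries in these genes. Ciita (GRCm38 chromosome 16, 10480059 to 10528418, plus strand), the activator of the class II genes, had 106, 65.6 and 1.8 CPM in T2MG libraries, against 17.4, 10.5 and 7.07 CPM in Control libraries, where T2MG 3 was below every other library. It was not called over all 3 (log2 fold change 2.31, SE 0.91, adjusted p = 0.0751) and was called without T2MG 3 (2.88, adjusted p = 0.00691). H2-Ob and H2-Oa, which restrain peptide loading, fell, the first to 2.5, 8.55 and 0.817 CPM in T2MG libraries, against 41.1, 57.3 and 44 CPM in Control libraries (log2 fold change -3.57, SE 0.69, adjusted p = 0.00122).

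Of 35 interferon response genes, 4 rose (11.4%, beside 11.7% of all genes tested) and 0 fell, with a median of 0.76. Without T2MG 3, 7 rose and the median was 1.17, while 2 rose without T2MG 1 and 1 without Control 2. By library the median difference from the Control mean was 1.34 in T2MG 1, 0.91 in T2MG 2 and -0.83 in T2MG 3, and -0.47 to 0.27 in the Control libraries. Oas2, an antiviral synthetase (GRCm38 chromosome 5, 120730333 to 120749853, minus strand), had 59.2, 30 and 12.5 CPM in T2MG libraries, against 9.45, 5.21 and 8.92 CPM in Control libraries (log2 fold change 2.11, SE 0.53, adjusted p = 0.00771; adjusted p = 0.0539 without T2MG 1). Bst2, tetherin (GRCm38 chromosome 8, 71534255 to 71537456, minus strand), had 221, 176 and 81.5 CPM in T2MG libraries, against 69.7, 57.9 and 79.7 CPM in Control libraries (log2 fold change 1.21, SE 0.33, adjusted p = 0.0138; 0.0725 without T2MG 1 and 0.0581 without Control 2). In T2MG 3 both lay close to the Control libraries. Irf7, the factor that amplifies interferon, had 202, 127 and 29.6 CPM in T2MG libraries, against 73.8, 33.2 and 62.5 CPM in Control libraries, and was not called (adjusted p = 0.256, and 0.108 without T2MG 3). Oasl2, Oas1a, Rtp4 and Ifit2 were called higher only when T2MG 3 was left out. Oasl2 had 168, 80.1 and 12.8 CPM in T2MG libraries, against 49.9, 23.8 and 41 CPM in Control libraries (1.69 without T2MG 3, adjusted p = 0.0292). Rtp4 had 107, 88.2 and 22.6 CPM in T2MG libraries, against 39.6, 36.2 and 37.1 CPM in Control libraries (1.37, adjusted p = 0.0116). T2MG 3 was the lowest of all 6 libraries in each. Slfn2, a regulator of quiescence, went the other way: it had 512, 512 and 907 CPM in T2MG libraries, against 258, 182 and 186 CPM in Control libraries (log2 fold change 1.62, SE 0.45, adjusted p = 0.0135) and was not called without T2MG 3 (adjusted p = 0.0664), Control 2 (0.0523) or Control 3 (0.057). Of 13 MHC class I genes 3 were called higher, H2-D1, H2-K1 and H2-M3 (adjusted p = 0.0427, 0.0484 and 0.0322), with a median of 0.54. Without T2MG 3, 4 were called, without T2MG 2 1, and without T2MG 1 or any Control library 0.

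Of 26 chemokines, 11 rose and 3 fell (7 and 3 without T2MG 3, 7 and 1 without Control 3, and 1 fell without T2MG 1 or T2MG 2), with a median of 0.92. Cxcl16, a membrane-bound chemokine that is also a scavenger receptor, had 1110, 596 and 736 CPM in T2MG libraries, against 104, 113 and 119 CPM in Control libraries (log2 fold change 2.86, SE 0.37, adjusted p = 3.25e-05). Ccl24, an attractant of eosinophils, had 95.8, 40.7 and 60.9 CPM in T2MG libraries, against 7.5, 8.6 and 5.93 CPM in Control libraries (log2 fold change 3.16, SE 0.40, adjusted p = 2.92e-05). Ccl12, an attractant of monocytes, had 796, 680 and 336 CPM in T2MG libraries, against 116, 112 and 196 CPM in Control libraries (log2 fold change 2.1, SE 0.29, adjusted p = 6.99e-05). In these every T2MG library lay above every Control library. Of 24 chemokine receptors, 5 rose and 4 fell (3 and 4 without T2MG 3; 3 rose without Control 3), with a median of 0.10. C5ar1, the receptor of complement C5a, rose, with 864, 914 and 1660 CPM in T2MG libraries, against 207, 393 and 226 CPM in Control libraries (log2 fold change 2.06, SE 0.39, adjusted p = 0.0011). Ccr1, a receptor of Ccl3 and Ccl5, had 80.5, 116 and 363 CPM in T2MG libraries, against 75.8, 79 and 50.2 CPM in Control libraries, with T2MG 3 far above its replicates (log2 fold change 1.45, SE 0.41, adjusted p = 0.0158). It was not called without T2MG 3 (0.53, adjusted p = 0.223) or without Control 3 (0.0776).

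Of 21 complement genes, 6 rose and 3 fell with and without T2MG 3, with a median of 0.46. C2, which forms the classical convertase (GRCm38 chromosome 17, 34862604 to 34898265, minus strand), had 227, 183 and 175 CPM in T2MG libraries, against 8.31, 5.21 and 10 CPM in Control libraries (log2 fold change 4.63, SE 0.44, adjusted p = 2.21e-06). Cfp, properdin, which stabilises the alternative convertase, had 1270, 2250 and 1770 CPM in T2MG libraries, against 85.2, 86.5 and 68.4 CPM in Control libraries (log2 fold change 4.46, SE 0.69, adjusted p = 0.000166). C1ra, the protease of C1, had 29.7, 26.8 and 15.9 CPM in T2MG libraries, against 5.98, 4.47 and 5.74 CPM in Control libraries (log2 fold change 2.16, SE 0.33, adjusted p = 0.000173). Itgam, a chain of complement receptor 3, fell, with 266, 282 and 395 CPM in T2MG libraries, against 906, 944 and 891 CPM in Control libraries (log2 fold change -1.54, SE 0.23, adjusted p = 0.000147). T2MG 3 was within or near the span of its replicates in C2 and Cfp. Of 31 inflammatory cytokine and NF-kappaB genes, 7 rose and 5 fell (7 and 4 without T2MG 3; 3 fell without Control 2), with a median of 0.08. The interleukin 1 genes divided: Il1a had 35.6, 62.6 and 94.2 CPM in T2MG libraries, against 186, 302 and 228 CPM in Control libraries (log2 fold change -1.90, SE 0.37, adjusted p = 0.00121). Il1b had 171, 111 and 301 CPM in T2MG libraries, against 65.8, 43.4 and 41.1 CPM in Control libraries (log2 fold change 1.95, SE 0.44, adjusted p = 0.00371). Nfkb1 fell (log2 fold change -1.08, SE 0.19, adjusted p = 0.000555) and Il10, an anti-inflammatory cytokine, had 11.7, 11.8 and 6.21 CPM in T2MG libraries, against 1.51, 1.62 and 1.53 CPM in Control libraries (log2 fold change 2.67, SE 0.35, adjusted p = 3.99e-05). Of 25 Toll-like receptor genes, 4 rose (16%, beside 11.7% of all genes tested) and 5 fell (20%, beside 12.3%), with a median of 0.23. Without T2MG 3, 5 rose and 4 fell. Only 2 rose without any 1 of the Control libraries, and 3 fell without Control 2. Tlr3, the sensor of double-stranded RNA, had 13.9, 18.4 and 3.43 CPM in T2MG libraries, against 73.5, 85.9 and 90.6 CPM in Control libraries (log2 fold change -2.80, SE 0.39, adjusted p = 7.29e-05). Irak4, a kinase below the receptors, had 41.7, 39.4 and 48.5 CPM in T2MG libraries, against 16.1, 4.81 and 5.29 CPM in Control libraries (log2 fold change 2.30, SE 0.34, adjusted p = 0.000108).

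Of 26 integrins and ligands, 2 rose and 6 fell (2 and 5 without T2MG 3), with a median of 0.11. Itgb3 had 11.9, 7.97 and 8.01 CPM in T2MG libraries, against 51.6, 39.1 and 57.4 CPM in Control libraries (log2 fold change -2.41, SE 0.41, adjusted p = 0.000364). Itgb5, a partner of Itgav in freeing TGF-beta, had 1210, 1020 and 941 CPM in T2MG libraries, against 1850, 2870 and 2470 CPM in Control libraries (log2 fold change -1.18, SE 0.24, adjusted p = 0.00156). Of 19 adhesion G protein-coupled receptors, 4 rose (21.1%, beside 11.7% of all genes tested) and 2 fell (10.5%, beside 12.3%), with a median of 0.30. Without T2MG 3, 3 rose and 3 fell, and only 2 rose without any 1 of the Control libraries. Adgrl3, a latrophilin, had 4.09, 9.53 and 3.11 CPM in T2MG libraries, against 0.315, 0.135 and 0.255 CPM in Control libraries (log2 fold change 4.51, SE 0.55, adjusted p = 5.14e-05). Of 32 metalloproteinases and inhibitors, 10 rose and 7 fell, with a median of 0.04. Without T2MG 3, 6 rose and 5 fell, without Control 1 6 rose, without Control 3 4 rose, and without Control 2 4 fell. Adam19 had 78.2, 51.3 and 43.6 CPM in T2MG libraries, against 10.2, 3.52 and 7.97 CPM in Control libraries (log2 fold change 2.99, SE 0.55, adjusted p = 0.000809). Mmp12, the macrophage elastase, had 49.9, 193 and 110 CPM in T2MG libraries, against 4.66, 24.8 and 11.2 CPM in Control libraries (log2 fold change 3.12, SE 0.58, adjusted p = 0.000802). Adam9 had 99, 140 and 267 CPM in T2MG libraries, against 56.4, 70.6 and 58.6 CPM in Control libraries (log2 fold change 1.44, SE 0.27, adjusted p = 0.000961). Adam8 and Mmp19 were highest in T2MG 3 and not called without it. Adam8 had 81.6, 62 and 230 CPM in T2MG libraries, against 40.7, 15.9 and 20.7 CPM in Control libraries (log2 fold change 2.27, SE 0.67, adjusted p = 0.0208; adjusted p = 0.138 without T2MG 3, 0.0828 without Control 2 and 0.0829 without Control 3). Mmp19 had 11.3, 10.4 and 38.5 CPM in T2MG libraries, against 7.18, 11.1 and 10.3 CPM in Control libraries (0.19 without T2MG 3, adjusted p = 0.65). Of 24 secreted growth factors, 5 rose (20.8%, beside 11.7% of all genes tested) and 3 fell (12.5%, beside 12.3%), with a median of 0.09. Without T2MG 3, 5 rose and 2 fell. Tgfa, a ligand of the EGF receptor, had 8.17, 17.5 and 6.29 CPM in T2MG libraries, against 98.3, 94.2 and 123 CPM in Control libraries (log2 fold change -3.30, SE 0.38, adjusted p = 1.12e-05). Spp1, osteopontin, had 80.9, 106 and 213 CPM in T2MG libraries, against 30.9, 34 and 19.6 CPM in Control libraries (log2 fold change 2.24, SE 0.50, adjusted p = 0.00361).

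Among general cell functions, ribosomal protein genes stood out by number. Of 79 cytosolic ribosomal protein genes, 70 rose and 1 fell, with a median of 0.78. Without T2MG 3, 47 rose, 0 fell and the median was 0.64, and over all settings tried 45 to 72 rose. By library the median difference was 0.7, 0.54 and 0.95 in T2MG 1, 2 and 3. These genes have many near-identical copies, so single members are uncertain. Of 74 oxidative phosphorylation subunits, 5 rose (6.76%, beside 11.7% of all genes tested) and 2 fell (2.7%, beside 12.3%), with a median of 0.27. Without T2MG 3, Control 1 or Control 3, 0 rose, without T2MG 1 or Control 2 1 rose, and without T2MG 2 9 rose. Of 22 glycolysis genes, 5 rose and 3 fell (2 and 4 without T2MG 3; 3 rose without Control 1), with a median of 0.16. Hk2, the inducible hexokinase, had 35.5, 25.7 and 26.1 CPM in T2MG libraries, against 79.6, 97.3 and 111 CPM in Control libraries (log2 fold change -1.72, SE 0.19, adjusted p = 8.43e-06). Pkm, pyruvate kinase, had 1510, 1040 and 2400 CPM in T2MG libraries, against 908, 817 and 905 CPM in Control libraries (log2 fold change 0.91, SE 0.22, adjusted p = 0.00671; 0.54 without T2MG 3).

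Of 37 integrated stress response genes, which follow the factor Atf4, 10 fell and 4 rose (8 and 3 without T2MG 3), with a median of -0.26. Slc7a5, an amino acid transporter, had 47.7, 80.9 and 49 CPM in T2MG libraries, against 112, 136 and 141 CPM in Control libraries (log2 fold change -1.13, SE 0.22, adjusted p = 0.00134), Phgdh, of serine synthesis, fell (log2 fold change -1.23, SE 0.26, adjusted p = 0.00219), and Shmt2, of mitochondrial folate metabolism, rose, with 82.7, 79 and 93.6 CPM in T2MG libraries, against 46.2, 42 and 46.8 CPM in Control libraries (log2 fold change 0.92, SE 0.14, adjusted p = 0.000113). Of 19 unfolded protein response genes, with a median of 0.05, 1 rose with and without T2MG 3 (5.26%, beside 11.7% of all genes tested). It was Atf6, a sensor of the endoplasmic reticulum (log2 fold change 0.74, SE 0.18, adjusted p = 0.00504). Of 18 oxidative stress genes, 9 rose and 2 fell (6 and 1 without T2MG 3; 5 rose without Control 3), with a median of 0.65. G6pdx, which supplies NADPH, had 403, 226 and 472 CPM in T2MG libraries, against 175, 154 and 154 CPM in Control libraries (log2 fold change 1.19, SE 0.21, adjusted p = 0.000594). Gclc, of glutathione synthesis, had 39, 44.1 and 36.6 CPM in T2MG libraries, against 74.7, 86.6 and 99.5 CPM in Control libraries (log2 fold change -1.12, SE 0.19, adjusted p = 0.000312). Of 17 p53 targets, 4 rose (23.5%, beside 11.7% of all genes tested) and 2 fell (11.8%, beside 12.3%), with a median of 0.07. Without T2MG 3, 3 rose and 2 fell, and 2 rose without Control 1. Bax, a mediator of cell death, had 129, 109 and 111 CPM in T2MG libraries, against 57.7, 68.7 and 57.9 CPM in Control libraries (log2 fold change 0.92, SE 0.13, adjusted p = 9.48e-05). Cdkn1a, the cell cycle inhibitor p21, had 151, 124 and 566 CPM in T2MG libraries, against 102, 122 and 104 CPM in Control libraries, high in T2MG 3 alone (log2 fold change 1.36, SE 0.41, adjusted p = 0.024). It was not called without T2MG 3 (0.33, adjusted p = 0.406), Control 1 (0.0765) or Control 3 (0.0786). Of 26 immediate early genes, 9 fell and 1 rose (7 and 0 without T2MG 3), with a median of -0.60. Btg2 had 1220, 1070 and 1350 CPM in T2MG libraries, against 3140, 3660 and 3530 CPM in Control libraries (log2 fold change -1.5, SE 0.21, adjusted p = 6.07e-05). Jun, a chain of AP-1, had 2850, 1970 and 2660 CPM in T2MG libraries, against 5470, 5350 and 5820 CPM in Control libraries (log2 fold change -1.16, SE 0.28, adjusted p = 0.00586). Of 32 proliferation genes, 2 rose (6.25%, beside 11.7% of all genes tested) and 0 fell (1 and 0 without T2MG 3), with a median of 0.60. Cdt1, which licenses replication, had 50.1, 39.1 and 45.7 CPM in T2MG libraries, against 24.8, 24.4 and 17.8 CPM in Control libraries (log2 fold change 1.01, SE 0.19, adjusted p = 0.00116).

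Markers of other cell types were measured in the same way. Of 11 choroid plexus genes, 4 fell and 0 rose, with a median of -2.08 (2, 0 and -1.65 without T2MG 3; 2 fell without Control 3). Their summed level was 4450, 4460 and 1350 CPM in T2MG libraries, against 12600, 9570 and 18400 CPM in Control libraries. Ttr, transthyretin, the defining marker, had 1890, 1580 and 542 CPM in T2MG libraries, against 5150, 3750 and 7310 CPM in Control libraries, and was not called (adjusted p = 0.0724). Of 14 neutrophil genes, 3 rose and 0 fell, with a median of 1.94 (2, 1 and 1.76 without T2MG 3; 1 rose without Control 3). Their sum was 34700, 10900 and 32000 CPM in T2MG libraries, against 10300, 6170 and 3980 CPM in Control libraries. S100a8, a defining marker, had 4610, 1050 and 4400 CPM in T2MG libraries, against 1180, 747 and 371 CPM in Control libraries (adjusted p = 0.229). Mmp9 had 1940, 2700 and 1770 CPM in T2MG libraries, against 173, 109 and 72.8 CPM in Control libraries (log2 fold change 4.17, SE 1.14, adjusted p = 0.0128; 0.0618 without Control 3). Of 20 monocyte genes, 1 rose, Vcan (log2 fold change 4.57, SE 0.81, adjusted p = 0.000542), and 1 fell, Ace, with a median of 1.15 (1, 0 and 0.84 without T2MG 3). Their sum was 20500, 15300 and 38800 CPM in T2MG libraries, against 10300, 8460 and 6970 CPM in Control libraries, and Ccr2 had 178, 322 and 324 CPM in T2MG libraries, against 225, 173 and 143 CPM in Control libraries (adjusted p = 0.549). Both sums were higher in every T2MG library than in every Control library, while few of the genes passed the test. Their part, and that of choroid plexus RNA, in the other results was not tested.

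Of 18 neuronal genes, with a median of 1.88, 5 rose and 1 fell (3 and 1 without T2MG 3; 2 rose without Control 1 or Control 3), all at or under 46.3 CPM. Snap25, a synaptic protein, had 19.4, 31.5 and 46.3 CPM in T2MG libraries, against 3.09, 13.9 and 6.18 CPM in Control libraries (log2 fold change 2.07, SE 0.65, adjusted p = 0.0279), and was not called without T2MG 3 (adjusted p = 0.0976), Control 1 (0.106) or Control 3 (0.101). Of 14 oligodendrocyte genes, with a median of 0.82, 2 rose, Mbp and Mobp, and 1 fell, Cspg4 (1 and 1 without T2MG 3; 4 rose without Control 2). Mbp, a myelin protein, had 700, 623 and 705 CPM in T2MG libraries, against 101, 285 and 203 CPM in Control libraries (log2 fold change 1.78, SE 0.33, adjusted p = 0.000795). Of 14 astrocyte genes, 2 rose and 2 fell (1 and 1 without T2MG 3; median 0.38), with Slc1a3 at 27.7, 29.4 and 42.5 CPM in T2MG libraries, against 125, 237 and 145 CPM in Control libraries (log2 fold change -2.35, SE 0.35, adjusted p = 0.000114). Of 17 endothelial and pericyte genes, 0 rose and 3 fell (2 without T2MG 3; median 0.18), and the defining marker Cldn5 was under 1 CPM in all 6 libraries. None of the 12 fibroblast and meningeal genes or the 5 erythroid genes was called, with medians of -0.30 and 0.07. Of 18 lymphocyte genes, with a median of 1.00, 1 rose with and without T2MG 3, Cd4, which some macrophages also carry. It had 334, 303 and 190 CPM in T2MG libraries, against 20.5, 2.98 and 9.3 CPM in Control libraries (log2 fold change 4.65, SE 0.99, adjusted p = 0.00239). Cd3e, a defining T cell marker, had 49.4, 66 and 54.4 CPM in T2MG libraries, against 42.3, 6.36 and 29 CPM in Control libraries (adjusted p = 0.568). The part of these cells in other results was not tested.

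The distance of T2MG 3 from its replicates was counted over the 9157 genes of at least 10 CPM. T2MG 3 was at least 2-fold above both replicates in 199 genes and below both in 509, 7.73% of the genes. The same count gave 78 above and 81 below in T2MG 1 (1.74%), 95 and 104 in T2MG 2 (2.17%), and 0.382% to 1.3% of the genes in the Control libraries. At 3-fold, 69 and 215 genes were left in T2MG 3, and among 4043 genes of at least 50 CPM 94 and 161. Of the 3738 called genes, 3670 had T2MG 3 on the called side of all 3 Control libraries. T2MG 3 helped to make these calls, so the count is no check of its agreement with its replicates. Without it, 2539 of the calls were kept.

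**Figure D3:**
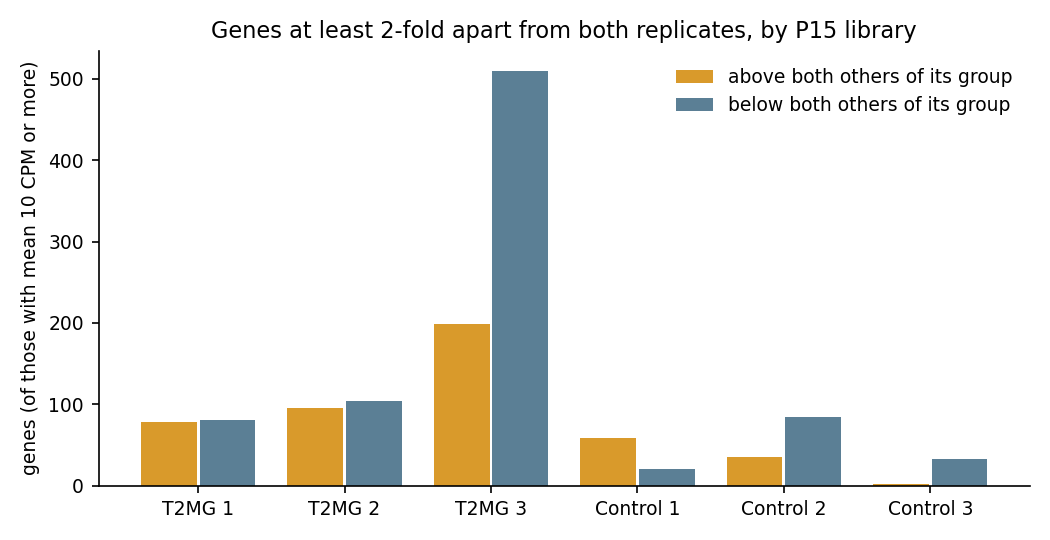
Number of genes, of 9157 with a mean of at least 10 CPM, in which a P15 library lies at least 2-fold above or below both other libraries of its group. T2MG 3 has 199 above and 509 below, more than any other library.

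Several genes called higher owed much of their fold change to T2MG 3. Il1r2 (GRCm38 chromosome 1, 40074079 to 40125231, plus strand), a decoy receptor that soaks up interleukin 1, had 58.2, 27.8 and 1040 CPM in T2MG libraries, against 8.25, 6.5 and 4.65 CPM in Control libraries. Its log2 fold change was 5.86 with T2MG 3 and 2.73 without it (adjusted p = 0.0312). Gdf15 (GRCm38 chromosome 8, 70629393 to 70632456, minus strand), a stress cytokine, had 69.8, 56.9 and 575 CPM in T2MG libraries, against 1.39, 1.62 and 2.68 CPM in Control libraries, and the rise was still called without T2MG 3 (6.94 with and 5.05 without it, adjusted p = 5.26e-07). Saa3, an acute phase protein (GRCm38 chromosome 7, 46711998 to 46715700, minus strand), had 9.61, 5.49 and 427 CPM in T2MG libraries, against 0.882, 2.17 and 6.5 CPM in Control libraries (log2 fold change 5.53, SE 1.21, adjusted p = 0.00311; 1.24, adjusted p = 0.296, without T2MG 3). Pik3ip1, an inhibitor of PI3 kinase (GRCm38 chromosome 11, 3330401 to 3342971, plus strand), had 15.7, 18.8 and 371 CPM in T2MG libraries, against 21.6, 19.3 and 14.8 CPM in Control libraries. Its called rise of 2.86 became -0.11 without T2MG 3 (adjusted p = 0.817) and was not called without Control 3 (0.0596). Klf9, a transcription factor, had 38.4, 31.4 and 299 CPM in T2MG libraries, against 34.6, 19 and 22 CPM in Control libraries (2.28, and 0.47 with an adjusted p of 0.654 without T2MG 3). Abca6, a lipid transporter, had 1.44, 4.7 and 57.6 CPM in T2MG libraries, against 1.64, 1.62 and 1.08 CPM in Control libraries (3.86, and 1.08, adjusted p = 0.223, without T2MG 3). Amica1, an adhesion molecule of leukocytes, had 34, 31.6 and 951 CPM in T2MG libraries, against 21, 22 and 25.2 CPM in Control libraries (3.90, and 0.53, adjusted p = 0.687, without T2MG 3). The calls of Klf9 and Amica1 were also lost without any 1 of the Control libraries (adjusted p 0.0654 to 0.123). For Il1r2 and Gdf15 T2MG 1 and T2MG 2 also lay above all Control libraries, and for Pik3ip1 they did not.

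The mast cell proteases Tpsab1, Tpsb2 and Cma1 were among the 10 genes furthest above in T2MG 3. Cma1, chymase, had 20.8, 6.14 and 210 CPM in T2MG libraries, against 3.28, 3.05 and 0.574 CPM in Control libraries (log2 fold change 5.10, SE 1.84, adjusted p = 0.0519). Tpsb2, a tryptase, had 32.2, 10.3 and 412 CPM in T2MG libraries, against 6.87, 8.66 and 0.446 CPM in Control libraries (log2 fold change 4.83, SE 2.00, adjusted p = 0.089), neither called. Tpsab1, a second tryptase, had 7.34, 0.0653 and 148 CPM in T2MG libraries, against 0.378, 2.23 and 0.828 CPM in Control libraries, and its call (log2 fold change 5.49, SE 1.90, adjusted p = 0.0441) was lost without T2MG 3 (adjusted p = 0.565), Control 1 (0.13), Control 2 (0.0796) or Control 3 (0.136). Prss34, a protease known from basophils and mast cells, was not detected in T2MG 3, with 351, 191 and 0 CPM in T2MG libraries, against 151, 26 and 25 CPM in Control libraries, and was not called (log2 fold change 1.43, SE 1.68, adjusted p = 0.572).

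**Figure D4:**
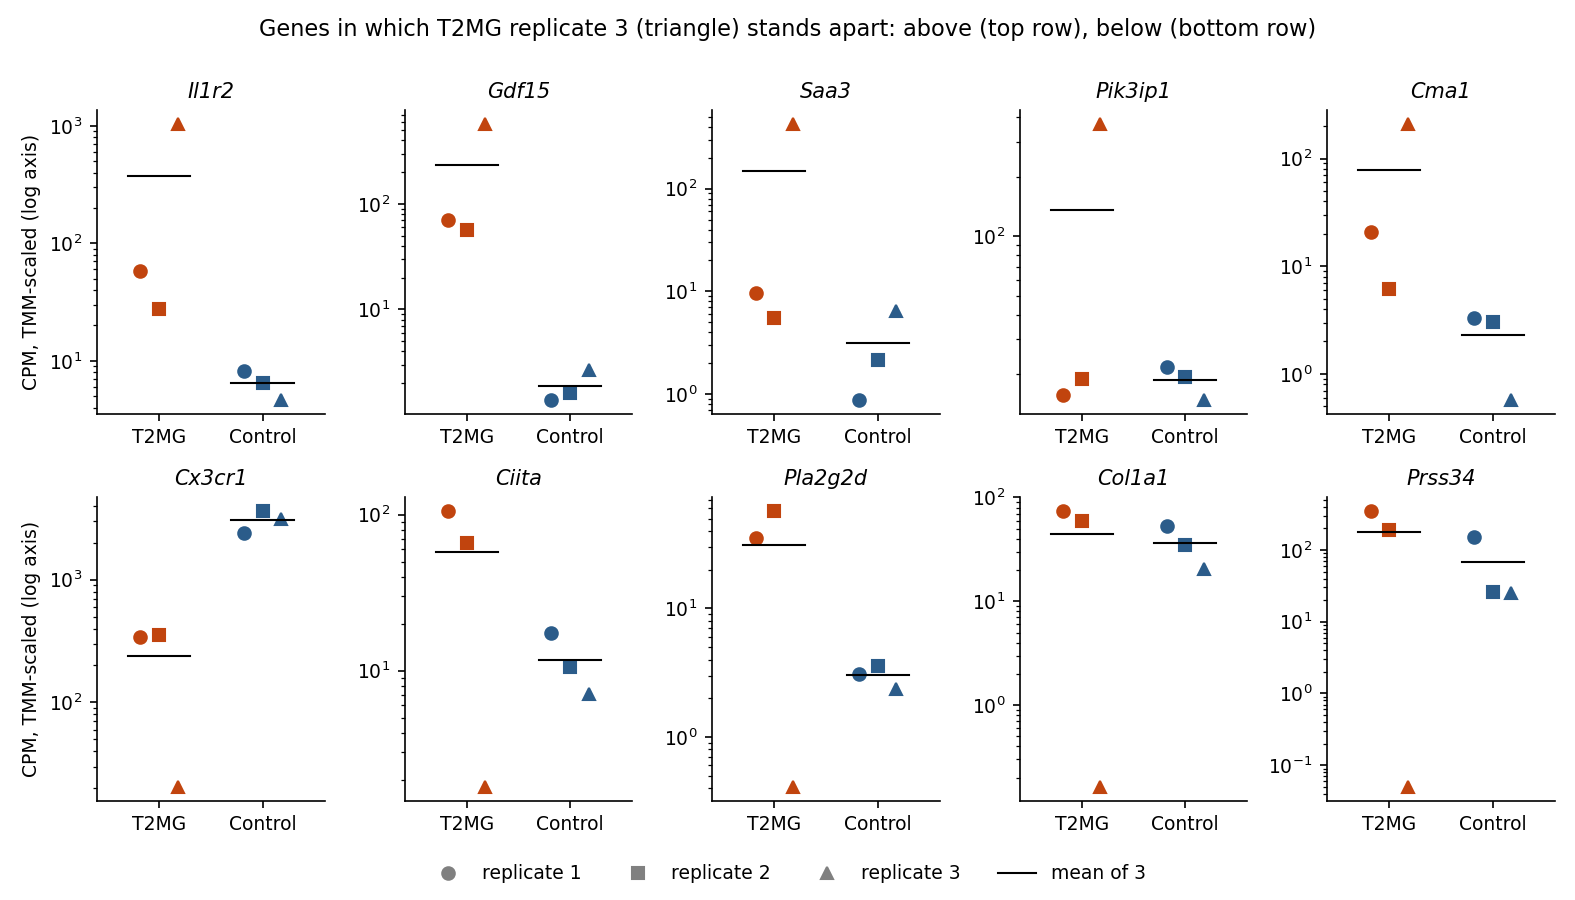
Level in CPM (log axes) of 10 genes in each P15 library, T2MG left and Control right of each panel, with a bar at the mean of 3; T2MG 3 is the triangle, and a level of 0 is drawn at 0.05 CPM. In the top row (Il1r2, Gdf15, Saa3, Pik3ip1, Cma1) T2MG 3 lies above the rest, and in the bottom row (Cx3cr1, Ciita, Pla2g2d, Col1a1, Prss34) below its replicates.

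Below its replicates T2MG 3 lay in genes of fibroblasts, of antigen presentation and of resting microglia. Collagen genes were near 0 there. Col1a1 had 74.4, 59.2 and 0.163 CPM in T2MG libraries, against 53.6, 34.8 and 20.5 CPM in Control libraries. Col3a1 had 28.1, 29.1 and 0.327 CPM in T2MG libraries, against 21.2, 10.2 and 8.22 CPM in Control libraries. Col6a2 had 23.6, 27 and 0.736 CPM in T2MG libraries, against 26, 12.3 and 7.2 CPM in Control libraries. None was called (adjusted p = 0.863, 0.679 and 0.911). Pla2g2d, a secreted phospholipase of macrophages and dendritic cells, had 35.4, 57.4 and 0.409 CPM in T2MG libraries, against 3.09, 3.59 and 2.36 CPM in Control libraries (log2 fold change 3.37, SE 1.24, adjusted p = 0.058), and was called without T2MG 3 (3.94, adjusted p = 0.0143). Adamts1, a protease of proteoglycans, had 32.3, 35.6 and 1.23 CPM in T2MG libraries, against 254, 699 and 348 CPM in Control libraries, a fall with and without T2MG 3 (-4.23 and -3.67). By list, T2MG 3 was at least 2-fold below both replicates in 23 of 32 interferon response genes of at least 10 CPM, 7 of 10 MHC class II genes, 8 of 11 choroid plexus genes, 7 of 8 fibroblast genes, 13 of 37 homeostatic genes, 7 of 19 genes of border-associated macrophages and 5 of 18 C-type lectins. It was above both in 3 of those 19 macrophage genes, 7 of 20 monocyte genes, 4 of 15 chemokine receptors and 3 of 14 neutrophil genes. Over all 9157 genes the shares were 5.56% below and 2.17% above. In the lysosomal list 1 of 37 genes lay above and 0 below, and in the ribosomal list 0 of 74 lay either way.

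**Figure D5:**
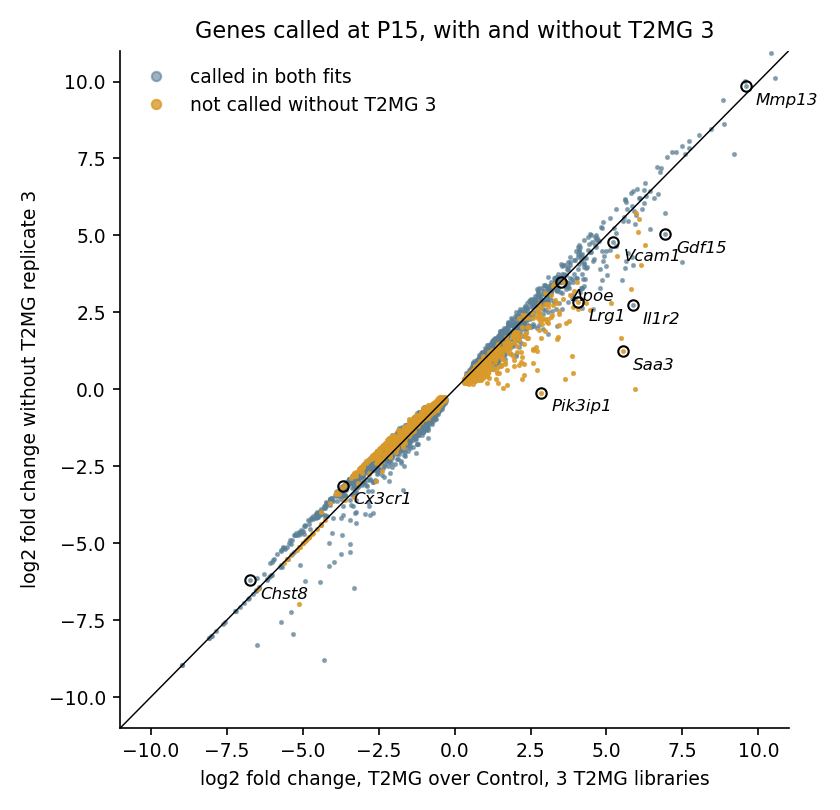
Log2 fold change (T2MG over Control) of each gene called at P15, with all 3 T2MG libraries on the x axis and without T2MG 3 on the y axis; the line marks equal values. Genes still called without T2MG 3 are blue and the others orange. Il1r2, Gdf15, Saa3 and Pik3ip1 lie below the line, and Mmp13, Apoe and Chst8 close to it.

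The P15 difference was set against that at embryonic day 16 (E16, 3 T2MG and 3 Control libraries) and postnatal day 60 (P60, 4 and 4) by testing the difference of the genotype effects. It differed from E16 in 2534 genes (16.3% of those tested), of which 1868 were called at P15 and not at E16, and 444 at neither stage. A further 131 were called at E16 and not at P15, and 56 at both stages in opposite directions. The E16 libraries were shallower, with 7456271 to 9241860 counts, against 14546425 to 16468744 at P15. The part of depth in these counts of genes was not tested. Without T2MG 3, 1951 of the 2534 were kept, and 1716 genes were called without Control 3. Gdf15 had an effect of -0.95 at E16 and 6.94 at P15 (difference 7.88, adjusted p = 0.000467, and 1.25e-05 without T2MG 3). Spp1 was lower in T2MG at E16, with 12.8, 9.88 and 8.11 CPM in T2MG libraries, against 77.4, 119 and 115 CPM in Control libraries, and higher at P15 (difference 5.58, adjusted p = 0.000213). Gpnmb, a glycoprotein of lipid-laden macrophages, had 108, 39.6 and 96.8 CPM in T2MG libraries, against 6.36, 2.3 and 4.08 CPM in Control libraries at P15 (log2 fold change 4.26, SE 0.71, adjusted p = 0.000348) and was lower in T2MG at E16. There it had 2.56, 2.68 and 4.38 CPM in T2MG libraries, against 13.6, 12.9 and 14 CPM in Control libraries (difference 6.33, adjusted p = 0.000645).

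The effect at P15 differed from that at P60 in 1249 genes (8.02%), with 642 of them called at P60 and not at P15. In 207 genes called at both stages in the same direction the effect was smaller at P15, and in 7 larger. Another 251 were called at P15 and not at P60, and 104 at both stages in opposite directions. Without T2MG 3, 824 of the 1249 were kept (66.0%) and 997 genes were called in all, while 769 were called without Control 1 and 580 without Control 3. Il10 rose at both stages, with the smaller effect at P15. At P60 it had 125, 170, 196 and 137 CPM in T2MG libraries, against 0.554, 0.355, 0.29 and 0.08 CPM in Control libraries. Its log2 fold change was 8.87 there, against 2.67 at P15 (difference -6.20, adjusted p = 4.31e-06). Cxcl1, an attractant of neutrophils, had 71.8, 71.8, 122 and 82.6 CPM in T2MG libraries, against 0.97, 0, 0 and 0.56 CPM in Control libraries at P60. At P15 it had 13, 8.69 and 13.9 CPM in T2MG libraries, against 1.57, 3.05 and 2.36 CPM in Control libraries (difference -5.45, adjusted p = 0.000976). Gpnmb had 1.55, 0.446, 2.18 and 1.51 CPM in T2MG libraries, against 2.7, 1.14, 13.2 and 10.6 CPM in Control libraries at P60, with a log2 fold change of -2.26 there (difference 6.51, adjusted p = 0.000986). H2-M2, a class I gene outside the classical set, had 63.9, 52.6 and 10.7 CPM in T2MG libraries, against 2.52, 0.338 and 0.765 CPM in Control libraries at P15, and at most 2.03 CPM in the libraries of P60 (difference 4.50, adjusted p = 0.0335). The 2 tests share the P15 libraries, so they are not independent of each other.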

How the data were processed

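RNA of sorted microglia was amplified with a SMART-Seq ultra low input kit and sequenced, per the labels' protocols. The authors deposited raw counts per gene symbol in 1 table. Per the submitters' processing notes, TopHat2 (version 0.7 there), Cufflinks 2.2.1 and the mm10 build were used. The sources used here do not name the counting tool or say how it treated strand and reads that match several genes. Of 24421 entries, 27 had a calendar date in place of a symbol and were left out (0.122% to 0.16% of the P15 counts). Genes passing edgeR's filterByExpr (15568) were fitted in R 4.3.3 with edgeR 4.0.16 (TMM scaling, quasi-likelihood, 6 group means over all 20 libraries, which share 1 estimate of spread), and T2MG was tested against Control at P15, and that effect against E16 and P60. DESeq2 1.42.0, limma 3.58.1 (voom), other scalings, no filter, the P15 libraries alone, a replicate block and leaving out each library were the alternatives. Departures of 1 library from both others of its group used log2(CPM + 1). Depth was 14546425 to 16468744 counts per P15 library. PCR copies are not told apart, so counts are not molecules. Positions are from GENCODE M21 (GRCm38, the same assembly as mm10), where 23358 symbols matched; 11720 of the tested genes matched a RefSeq promoter.

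The members and the 46 gene lists were chosen with earlier results of these data known. Named by rule were Tgfbr2, the 20 highest and 20 lowest genes, the 4 or fewer members per list lowest in adjusted p, the 10 genes furthest above and below in T2MG 3, and the 5 highest and lowest per stage difference. Some genes named by this rule are not reported here. Acvrl1, Ada, Adam8, Atf4, Ccl3, Ccl5, Ccr1, Ccr2, Cd3e, Cd9, Cdkn1a, Cebpa, Cldn5, Clec4d, Clec4e, Csf1, Csf1r, Ctsc, Ctsd, Ctsl, Ctss, Dab2, Eno1, Fabp3, Fcgr2b, Folr2, Fth1, Gas6, Gpr34, H2-Aa, Havcr2, Id1, Id3, Ifit2, Il1b, Irf7, Itgb5, Itgb8, Kcnk13, Lilrb4a, Lpl, Ltbp1, Lyve1, Maf, Mmp19, Ms4a7, Nr1h3, Nrros, Oas1a, Oasl2, Pf4, Phgdh, Pmepa1, Pparg, Rtp4, S100a8, Ski, Slc40a1, Smad1, Smad2, Smad4, Snap25, Tfec, Tgfb1, Tgfb3, Tgfbi and Ttr were chosen after their values were seen, as were the printed promoters.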

Additional observations from a re-analysis of the deposited data

Results flagged for a closer look

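The P15 effect differed most from that at E16 or P60 in the following genes, all past the test of the difference itself in edgeR's quasi-likelihood test with Benjamini-Hochberg adjustment (from the 5 highest and 5 lowest per stage among genes averaging at least 10 CPM over the libraries of both stages, so some lie below that at P15). Differences are the log2 fold change at P15 minus that at the other stage.

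Against E16, Gdf15 had a difference of 7.88 (adjusted p = 0.000467), H2-M2 of 5.79 (adjusted p = 0.0315), Gpnmb of 6.33 (adjusted p = 0.000645) and Spp1 of 5.58 (adjusted p = 0.000213). Il1r2 had a difference of 6.64 (adjusted p = 0.0151), which was not called without T2MG 3 (adjusted p = 0.0654). Of the lowest, Ebf3, a transcription factor, had a difference of -10.01 (adjusted p = 0.000124), with 0, 0 and 0 CPM in T2MG libraries, against 3.53, 5.48 and 5.35 CPM in Control libraries at P15. It had 0 counts in all T2MG libraries of P15, at least 64.8-fold lower than in Control libraries when 3 counts over the group are allowed. Nes, nestin, a filament protein of precursor cells, had a difference of -6.14 (adjusted p = 0.00129), with 0, 0 and 0.0817 CPM in T2MG libraries, against 3.15, 4.4 and 1.66 CPM in Control libraries at P15. Col6a3, a collagen chain, had a difference of -6.35 (adjusted p = 0.00822) and Zswim5 of -6.22 (adjusted p = 0.00039). Col6a3 had 3 counts over the T2MG libraries of P15, against 193 over the Control libraries, and Nes 1 against 141. Their P15 folds are therefore loose, with 95% intervals (exact binomial, counting error only) of 19.1 to 277 for Col6a3 and 21.9 to 4930 for Nes. Of all the genes named against E16, only Il1r2 lost its call without T2MG 3.

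Against P60, H2-Ea-ps had a difference of 8.55 (adjusted p = 0.0128), with 40.7, 200, 18.6 and 108 CPM in T2MG libraries, against 138, 0.497, 12.8 and 30.7 CPM in Control libraries at P60. Its level thus ran over a wide range within the Control libraries alone. F9, clotting factor IX, had a difference of 8.15 (adjusted p = 0.00573), with 1.06, 2.35 and 0.654 CPM in T2MG libraries, against 10.5, 17.3 and 9.94 CPM in Control libraries at P15 and 0, 0, 0 and 0 CPM in T2MG libraries, against 11.8, 30, 25.8 and 32.3 CPM in Control libraries at P60. Lrg1, a glycoprotein that binds a TGF-beta co-receptor, had a difference of 7.03 (adjusted p = 0.0151), with 447, 149 and 1500 CPM in T2MG libraries, against 55.9, 46.6 and 23.1 CPM in Control libraries at P15, highest in T2MG 3; its P15 rise (4.06) was not called without T2MG 3 (adjusted p = 0.0981), Control 2 (0.0583) or Control 3 (0.083). Gpnmb had a difference of 6.51 (adjusted p = 0.000986). Mmp8, a collagenase of neutrophils, had a difference of 6.25 (adjusted p = 0.0311) that was not called without T2MG 3 (adjusted p = 0.084), with 626, 212 and 2710 CPM in T2MG libraries, against 119, 100 and 61.9 CPM in Control libraries at P15. Of the lowest, Ifi202b, an interferon-induced gene, had a difference of -8.66 (adjusted p = 0.00534), with 0.605, 53.3 and 36.7 CPM in T2MG libraries, against 40.8, 21.1 and 0.701 CPM in Control libraries at P15 and 101, 101, 97 and 109 CPM in T2MG libraries, against 0.208, 0.284, 0.0724 and 0.08 CPM in Control libraries at P60. Il10 had a difference of -6.20 (adjusted p = 4.31e-06), Ptprk, a receptor phosphatase, of -5.48 (adjusted p = 0.00282), Cxcl1 of -5.45 (adjusted p = 0.000976) and Cd55, a complement inhibitor, of -5.02 (adjusted p = 0.000996). Fitted differences of genes with a group at or near 0 depend on the prior count, among them Ebf3, F9, Ifi202b, Nes, Col6a3, Il10 and Cxcl1. In Ifi202b the 2 groups overlapped at P15, with 0.605 to 53.3 CPM within T2MG and 0.701 to 40.8 CPM within Control. The labels do not give strain background by library, and its part in the levels of Ifi202b and H2-Ea-ps was not tested.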

How the results depend on the processing

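At P15, 1821 genes were called higher and 1917 lower as reported. A fit of the 6 P15 libraries alone called 1023 higher and 1090 lower. It had fewer libraries to estimate the spread, and the main fit shares 1 estimate over all 20. Chi-square per gene between T2MG libraries was 73.64 to 152.47 at P15, 5.25 to 20.82 at E16 and 19.26 to 29.24 at P60. Between P60 Control libraries it was 15.59 to 102.67. Why the P15 fit called fewer genes was not tested. Leaving out 1 library gave 1140 to 1948 higher and 1335 to 2152 lower. DESeq2 called 2248 and 2219, limma voom 2098 and 2466. Replicate numbers were not used as pairs in the main fit. Deviations of same-numbered libraries correlated at 0.14, 0.03 and -0.11, and those of differently numbered libraries at -0.15 to 0.1. With 3 libraries per group, these values cannot exclude a pairing. With the replicate block, 1498 genes were called higher and 1786 lower, and 2031 and 907 genes differed from E16 and P60. The count against E16 was 1716 to 3207 on leaving out 1 P15 library, against 2534 as reported. The count against P60 was 580 to 1869 on leaving out 1 P15 library, 2288 in DESeq2 and 1882 in limma voom, against 1249 as reported; the cause was not tested. T2MG 3 departed from both replicates in 708 genes, in 284 at 3-fold and in 255 of the genes of at least 50 CPM, as stricter limits must give fewer. Over the 226 named genes, Pik3ip1 reversed, to -0.11 without T2MG 3 (-0.11 to 3.39 on leaving out 1 library). Calls were lost for 25 of them without T2MG 3, 27 without Control 3, 5 without T2MG 2 and 13 with the replicate block. Upper-quartile scaling put 43.6% of calls higher and relative-log size factors 50.7%, against 48.7% as reported. At 14546425 to 16468744 counts per library, genes under 1 CPM rest on few reads.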
